A study of Arabidopsis thaliana with 21 samples.

Results

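*spaQ* seedlings, which lack the SPA proteins because *SPA1*, *SPA2*, *SPA3* and *SPA4* are all mutated, were compared with the wild type Col-0 after red light, across every expressed gene. The comparison rests on 6 of the 21 libraries of the series, 3 of *spaQ* and 3 of Col-0, chosen by genotype and light from their labels. Seedlings of both lines were 3 days old. Their seeds had 3 days of cold, 3 h of white light, 21 h of darkness, far-red light at 10 µmol m-2 s-1 and 2 days of darkness, and the seedlings then received 1 h of red light, at 8 µmol m-2 s-1 according to the labels and at a lower fluence rate according to the methods. Whole seedlings were used, the alleles in *spaQ* are not given in the labels, and *cop1-4*, a weak allele of *COP1* grown and lit in the same way (3 libraries), served as the other mutant in the fit. Dark libraries of these lines were not analysed here, so the values below are levels after red light and not responses to it.

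SPA proteins bind COP1, and together they give substrate specificity to an E3 ubiquitin ligase built on CUL4. In darkness this ligase marks transcription factors that promote light growth, such as HY5, for degradation, and light perceived by phytochromes and cryptochromes inactivates it. Dark-grown seedlings without it have short hypocotyls and open cotyledons, as light-grown seedlings do, whereas the elongation of a dark-grown hypocotyl depends on PIF transcription factors, auxin, gibberellin and brassinosteroid.

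The libraries held 20804090 to 23996624 counts in Col-0 and 21918551 to 24338460 in *spaQ*, and 3 counts, taken as the detection floor of a library, equalled 0.114 to 0.145 CPM, a gene's counts relative to the scaled size of its library. Expression is given below as CPM in libraries 1, 2 and 3 of a group, after scaling by TMM factors, and differences as log2 fold changes of *spaQ* over Col-0. The biological coefficient of variation was 3.40% among the Col-0 libraries and 5.82% among the *spaQ* libraries, of which library 1 lay farther from the other two than they lay from each other. Nothing in the labels says that the libraries of a group came from separate cultures, so the p-values measure the spread between these libraries, which may be technical. Because whole seedlings were used, fewer cells of a type and less RNA per cell cannot be told apart in any of these values.

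The mutated genes were checked first. *SPA1* was at 316, 303 and 312 CPM in Col-0 and 39.0, 38.5 and 42.3 in *spaQ*, and *SPA3* was at 153, 144 and 152 in Col-0 and 25.7, 22.8 and 25.1 in *spaQ*. *SPA1* fell by 2.96 on the log2 scale (standard error 0.052, edgeR adjusted p = 2.82e-25), *SPA3* fell by 2.61 (edgeR adjusted p = 9.18e-24), and the lines did not overlap. *SPA2* held 43.1, 48.9 and 48.0 CPM in Col-0 and 46.5, 51.7 and 51.9 in *spaQ*, and *SPA4* held 53.5, 50.8 and 52.4 and 65.9, 63.1 and 68.0. Neither was called, and their transcripts therefore do not mark the mutant: a count over a whole gene does not show whether the RNA encodes an intact protein. *COP1*, the RING finger partner of the SPA proteins, was at 68.1, 66.1 and 70.4 CPM in Col-0 and 89.7, 81.2 and 76.5 in *spaQ*, a log2 difference of 0.27 that was below the fold limit. Among the 13 tested genes of the ligase and its partners, *SPA1* and *SPA3* were the members called, both lower. *DET1* (0.79) and *COP10* (0.79), which encode partners of DDB1 in a related CUL4 complex, had the highest log2 values among the rest.

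Of 20396 genes tested, 6630 were called, meaning an edgeR quasi-likelihood adjusted p under 0.05 and a log2 fold change of more than 1 in either direction. They make up 32.5% of the genes tested, with 15% higher in *spaQ* and 17.5% lower, and these shares are the background for every list below. The libraries of the lines did not overlap for 80.2% of the genes, so non-overlap alone sets few genes apart. The median log2 fold change of all tested genes was 0.01. Scaling by library size alone was also tried: the log2 fold changes of the same genes dropped by a median of 0.25, which left 2182 genes higher and 4499 lower, so that 32.7% of the called genes were higher against 46.1% with TMM factors. Directions below are relative to the bulk of genes, as TMM scaling sets them.

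**Figure D1:**
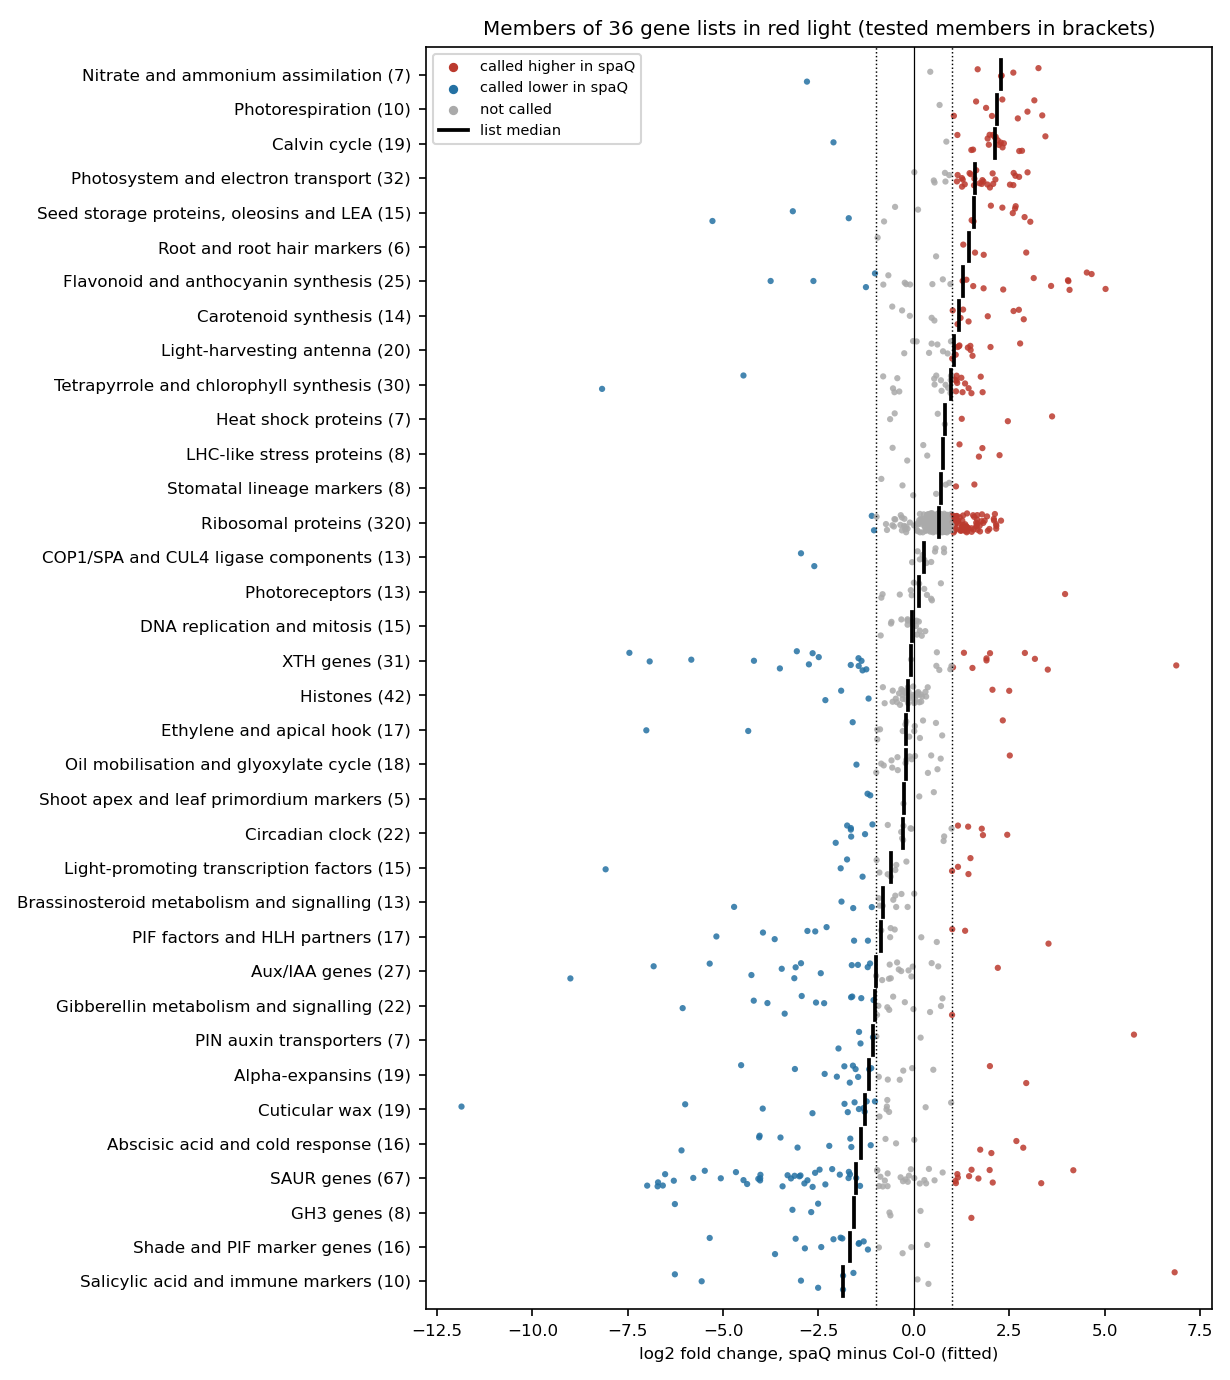
Log2 fold change of *spaQ* over Col-0 in red light for the tested members of 36 gene lists, 1 point a gene, with the list median as a bar, dotted lines at the fold limit of 1 and the number of tested members in brackets. The medians run from -1.86 for salicylic acid and immune markers to 2.29 for nitrate and ammonium assimilation, beside 0.01 for all genes, and points of genes with no counts in one line are fitted values.

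Genes of carbon fixation stood among the largest gains. Of the 19 tested Calvin cycle genes, 17 rose in *spaQ* and 1 fell, with a median log2 fold change of 2.12, and summed over the list the level went from 13819 to 14625 CPM in Col-0 libraries to between 58966 and 63112 CPM in *spaQ* libraries. *RBCS1A*, a nuclear gene for the Rubisco small subunit, had the largest gain in CPM of any called gene, from 3915, 3925 and 4163 in Col-0 to 17574, 17906 and 16639 in *spaQ*. *RCA*, which encodes Rubisco activase, rose from 1430.5, 1355 and 1496 CPM to 10006, 10789 and 9767. *RBCS3B*, for another small subunit, rose from 1500.1, 1486 and 1596 CPM to 7835, 8083 and 7602. In each of these genes every *spaQ* library was far above the Col-0 range. *GAPA2* and *GAPB* encode subunits of the chloroplast glyceraldehyde-3-phosphate dehydrogenase. *GAPA2* had 300.5, 281 and 304 CPM in Col-0 and 3633, 2996 and 3033 in *spaQ* (log2 fold change 3.45), and *GAPB* had 548, 537 and 556 and 4202, 3455 and 3491 (2.76). One small-subunit gene went the other way: *RBCS2B* was at 1229.7, 1209 and 1258 CPM in Col-0 and 267, 295 and 296 in *spaQ*, a log2 fold change of -2.11. The *RBCS* genes are close copies of each other, so reads may have been split among them and the values of single copies are uncertain. Standard errors of the called members ran from 0.050 to 0.071 and edgeR adjusted p-values reached at most 1.53e-16.

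Genes of the photosystems and the electron transport chain moved in the same direction. 26 of 32 tested members rose and 0 fell, with a median log2 fold change of 1.61 and adjusted p-values of at most 4.74e-16. *PSAN*, a subunit of photosystem I, was at 281, 260.3 and 294 CPM in Col-0 and 2776, 1905 and 1915 in *spaQ*. *PSBO2*, a subunit of the oxygen-evolving complex of photosystem II, was at 195, 187 and 205 CPM and 1532, 1210.2 and 1227. *FNR2*, a ferredoxin-NADP reductase, was at 140.2, 142 and 140.0 CPM and 994, 832 and 845. The *spaQ* library 1 was the highest in each of these genes and no *spaQ* library came near the Col-0 range. *PETE1*, one of the plastocyanin genes, was the lowest member at 0.01 and was not called, with 49.4, 49.6 and 52.7 CPM in Col-0 and 51.3, 53.4 and 48.3 in *spaQ*, whereas its paralog *PETE2* rose from 517, 492 and 535 to 2304, 2127 and 2094.

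Antenna genes, for the proteins that bind chlorophyll and pass light energy to the photosystems, had a lower median. 11 of the 20 tested *LHCA* and *LHCB* genes were called higher and 0 lower, with a median of 1.05. Library size alone left 6 of them past the limit. *LHCA5*, for a minor antenna protein of photosystem I, had 40.5, 37.2 and 41.4 CPM in Col-0 and 300.0, 264 and 257 in *spaQ* and the largest log2 fold change of the list (2.79). *LHCB1.1*, for a major antenna protein of photosystem II, had 434, 418 and 479.9 and 1792, 1826 and 1748 (2.01). *LHCB2.1* followed at 1.54. Beside them, *LHCB3* was at 1019, 996 and 1079 CPM in Col-0 and 1139, 1034 and 1083 in *spaQ*, and *LHCB4.2* at 607, 593 and 641 and 555, 496 and 495, so that the antenna genes ranged from -0.25 to 2.79 on the log2 scale. *LHCB1* and *LHCB2* copies are near-identical and their single values carry the same uncertainty as those of *RBCS*.

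Genes of photorespiration, which recovers carbon from the oxygenase product of Rubisco in chloroplasts, peroxisomes and mitochondria, were higher too. 9 of 10 tested genes were called higher, 0 lower, and the median was 2.18. *AGT*, a peroxisomal aminotransferase that uses glyoxylate, rose from 392, 396 and 418 CPM to 4462, 3991 and 3992. *SHM1*, the mitochondrial serine hydroxymethyltransferase, rose from 352, 333 and 348 to 3315, 2920.1 and 2999. *GGT1*, the glutamate:glyoxylate aminotransferase, rose from 606, 600.4 and 609 to 5000.1, 4717 and 4592. Their log2 fold changes were 3.37, 3.16 and 2.98, and *AGT* and *GGT1* were among the 5 called genes with the largest gain in CPM. Of 7 genes of nitrate and ammonium assimilation, 5 rose and 1 fell. *ASN1*, an asparagine synthetase whose transcript is known to accumulate in darkness, was at 138, 143 and 135 CPM in Col-0 and 1376, 1344 and 1278 in *spaQ* (3.27). The nitrate reductase genes *NIA1* (2.61) and *NIA2* (2.303) rose too. *NRT1.1*, a nitrate transporter and sensor, fell from 315, 325 and 302 CPM to 44.0, 46.4 and 44.8 (-2.80).

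**Figure D2:**
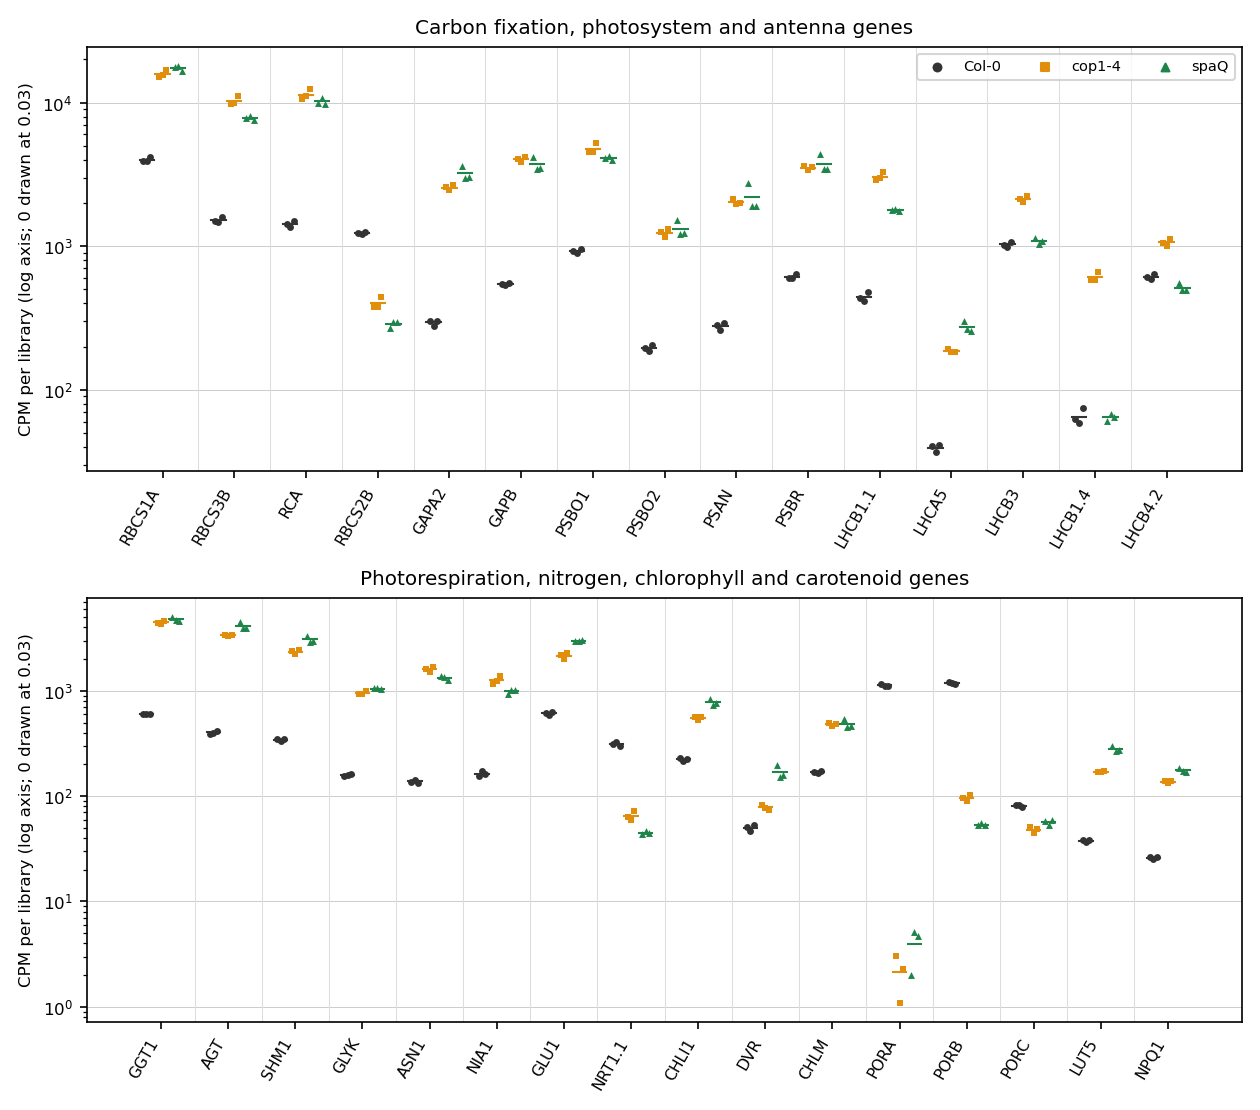
CPM of carbon fixation, photosystem and antenna genes (top) and of photorespiration, nitrogen, chlorophyll and carotenoid genes (bottom) on log axes, 1 point a library and a bar at the mean of Col-0, *cop1-4* and *spaQ*. *RCA* lies between 1355 and 1496 CPM in Col-0 and between 9767 and 10789 in *spaQ*, while *PORA* lies between 1110.3 and 1161 in Col-0 and between 2.003 and 5.15 in *spaQ*.

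Chlorophyll synthesis split. Of 30 tested genes of the tetrapyrrole pathway, 13 rose and 2 fell, and both genes that fell encode NADPH:protochlorophyllide oxidoreductases, the enzymes of the light-requiring step. Library size alone left 6 higher. *PORA*, which is known to be abundant in dark-grown seedlings, held 1161, 1117 and 1110.3 CPM in Col-0 and 2.003, 5.15 and 4.70 in *spaQ* (log2 fold change -8.17, standard error 0.14, edgeR adjusted p = 1.52e-25). *PORB* held 1213, 1191 and 1163 in Col-0 and 52.7, 55.8 and 52.8 in *spaQ* (-4.47). The third gene, *PORC*, was at 81.6, 82.5 and 78.6 and 58.6, 53.0 and 59.0 and was not called. The genes that rose most were *CHLI1*, a magnesium chelatase subunit (1.803), *DVR*, the divinyl reductase (1.75), and *CHLM*, the magnesium protoporphyrin methyltransferase (1.51). *HEMA1*, for the first committed enzyme of the pathway, had 405, 379 and 409 CPM in Col-0 and 664, 530.4 and 544 in *spaQ*, below the fold limit at 0.54. Of 14 carotenoid genes 9 rose and 0 fell. *LUT5*, a carotene hydroxylase, went from 38.4, 36.8 and 38.4 CPM to 297, 267 and 274. *NPQ1*, the violaxanthin de-epoxidase, went from 26.5, 25.4 and 26.5 to 183, 174 and 171, and *CCD4*, a carotenoid cleavage dioxygenase, from 7.86, 8.81 and 8.29 to 54.7, 49.4 and 48.8. *PSY*, for phytoene synthase at the entry of the pathway, was at -0.31 and was not called. Of the 8 tested genes for LHC-like proteins, 4 rose, led by *SEP1* (2.25), *OHP2* (1.797) and *OHP1* (1.71), which encode small chlorophyll-binding proteins of the thylakoid. The early light-induced genes *ELIP1* (-0.56) and *ELIP2* (0.25) were not called.

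Transcripts of photoreceptors mostly stayed within the fold limit. 1 of 13 tested genes was called, *FKF1*, an F-box blue light receptor of the photoperiod pathway, which rose from 1.27, 1.55 and 1.67 CPM to 24.6, 23.7 and 22.4 (3.96). *PHYA*, for the receptor of far-red light, had 609, 619 and 605 CPM in Col-0 and 349.8, 324 and 364 in *spaQ*, a log2 difference of -0.82 below the fold limit. *PHYB*, for the main red light receptor, had 137, 129 and 133 and 119, 138 and 127, with overlap between the lines. The median of the list was 0.14 with TMM factors and -0.11 with library size alone, the sole list median that changed sign with that scaling.

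Transcription factors that act in light growth, not all of them as promoters, were called in both directions, 4 higher and 4 lower of 15 (2 and 6 with library size alone). *HY5*, a bZIP factor and a known target of the COP1/SPA ligase at the protein level, had 171, 167 and 176 CPM in Col-0 and 53.5, 50.1 and 48.7 in *spaQ* (-1.75). Its close relative *HYH* had 49.1, 46.3 and 48.8 in Col-0 and 96.2, 95.8 and 96.9 in *spaQ* (1.00), a call at the very limit that was lost with DESeq2 (0.99), without *spaQ* library 3 (0.9995) and without Col-0 library 2 (0.98). *HFR1*, an atypical bHLH factor (-1.34), and *GLK1*, an activator of chloroplast genes (-1.92), were lower. *GLK1* fell from 32.6, 32.0 and 34.6 CPM to 9.17, 9.10 and 7.95 while most photosystem and antenna genes rose. Among the B-box genes *BBX20* (1.43), *BBX22* (1.48) and *BBX25* (1.16) rose. *BBX23* had 1.36, 1.94 and 1.52 CPM in Col-0 and no count in any *spaQ* library, at least 11.4-fold lower against a floor of 3 counts per library.

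The joint list of PIF factors and HLH partners leaned downward, with 8 of 17 tested members lower and 3 higher, and a median of -0.86. The PIF genes themselves were called in both directions, with *PIF7* and *PIF8* among the 3 higher members. *PIF3* fell from 67.9, 67.0 and 65.3 CPM to 20.4, 25.0 and 22.2. *PIF7* rose from 1.57, 2.06 and 1.41 to 19.1, 20.2 and 18.8 and *PIF8* from 36.6, 38.5 and 41.5 to 98.3, 97.3 and 101. *PIF1* was at 48.8, 45.1 and 45.2 CPM in Col-0 and 30.8, 32.3 and 35.2 in *spaQ*, *PIF4* at 32.4, 33.8 and 34.3 and 19.5, 18.15 and 17.8, and *PIF5* at 76.3, 74.0 and 83.1 and 115, 126 and 114. None of the last trio was called, at -0.50, -0.86 and 0.60. The largest losses were in genes for HLH proteins: *PRE5* (-5.18), *HEC2* (-3.95) and *PRE1* (-3.65), of which the PRE proteins are known to promote cell elongation. *PRE2* (1.01) was called higher at under 1 CPM in every library of both lines, and the call was lost without *spaQ* library 3 (0.68), Col-0 library 2 (0.91) or Col-0 library 3 (0.92).

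Clock genes changed in both directions. Of 22 tested, 7 were lower and 5 higher, and the median was -0.28. The morning MYB genes *LHY* (459, 444 and 452 CPM in Col-0 and 145, 141 and 146 in *spaQ*) and *CCA1* (336, 337 and 333 and 152, 127 and 136) were lower. *RVE2* had the largest loss of the list, from 274, 275 and 263 to 71.0, 62.5 and 62.7 (-2.05), and *BOA*, a GARP factor, and *RVE8*, a MYB activator, followed at -1.75 and -1.65. The pseudo-response regulator *PRR7* had the largest gain, from 75.7, 79.0 and 77.5 CPM to 448, 406 and 414 (2.45), ahead of *PRR5* (1.81). Within the evening complex *ELF4* (1.78) and *LUX* (1.16) rose and *ELF3* (-1.08) fell. *TOC1*, for the evening pseudo-response regulator, had 78.7, 74.0 and 71.0 CPM in Col-0 and 136, 156 and 151 in *spaQ* and lay just under the limit at 0.99, past it without *spaQ* library 1 (1.05) or Col-0 library 1 (1.03), and *GI* was at -0.27. The time of day at harvest is not given in the sources used here, so a difference in level and a difference in phase cannot be told apart.

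**Figure D3:**
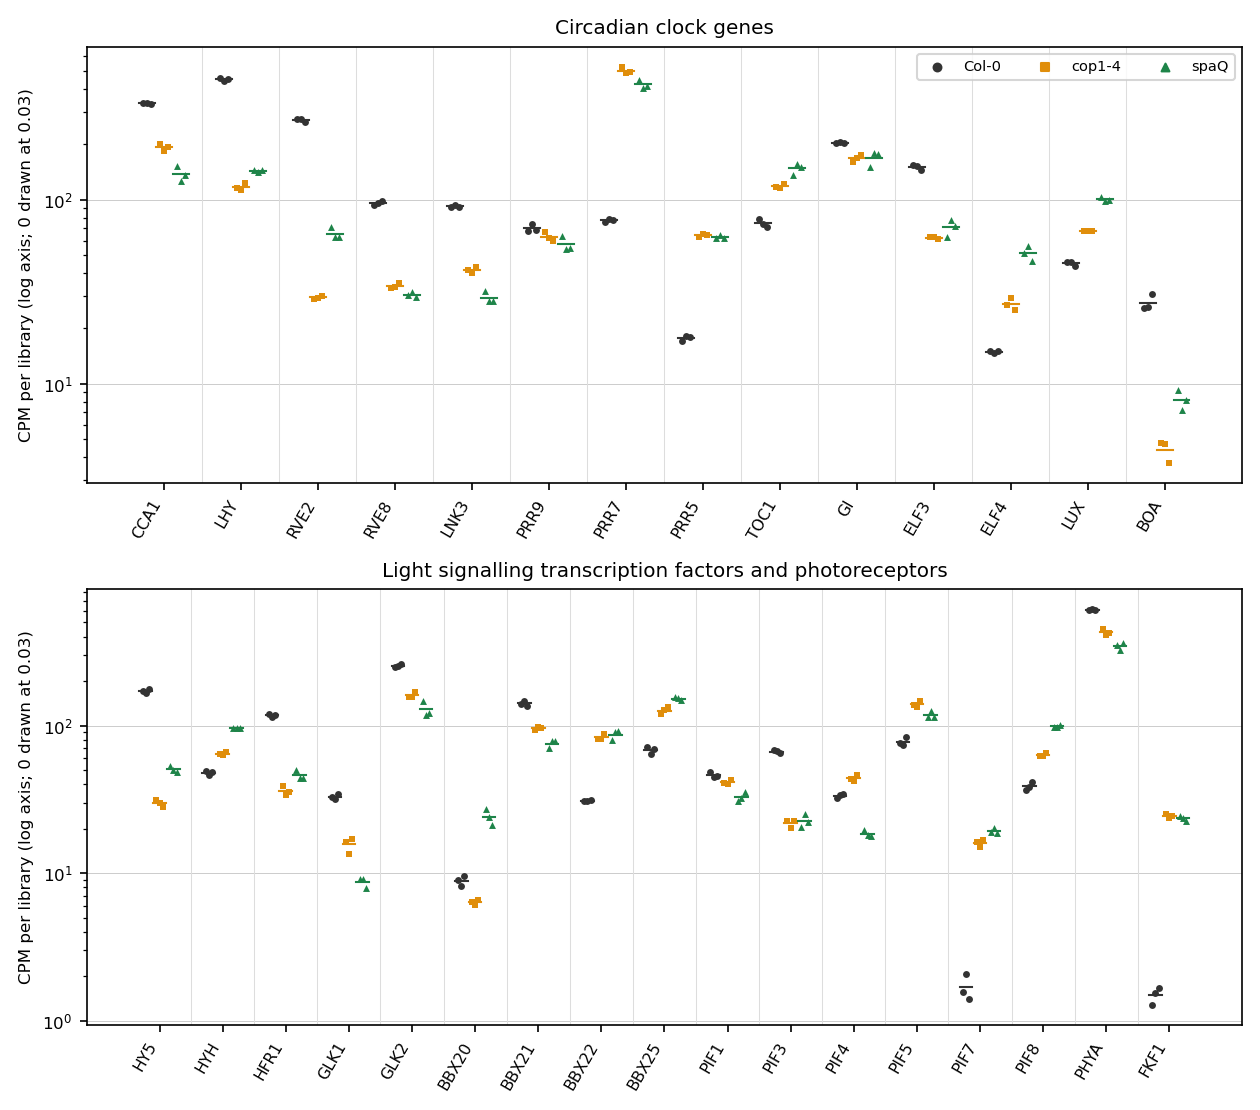
CPM of clock genes (top) and of light signalling factors and photoreceptors (bottom) on log axes, 1 point a library and a bar at the mean of each group. *LHY* is at 444 to 459 CPM in Col-0 and 141 to 146 in *spaQ*, *PRR7* at 75.7 to 79.0 and 406 to 448.

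Genes that mark shade and PIF activity were mostly lower: 12 of 16 tested members fell, 0 rose, and the median was -1.66. *IAA19*, an auxin-induced repressor of auxin response, went from 81.7, 76.4 and 88.0 CPM in Col-0 to 1.82, 1.97 and 2.23 in *spaQ* (-5.35). *FHL*, which encodes a protein that carries phyA into the nucleus, went from 8.41, 6.54 and 7.49 to 0.579, 0.626 and 0.582 (-3.64). *IAA29* went from 3.65, 2.79 and 4.11 to 0.401, 0.530 and 0.291. The homeodomain genes *HAT2* (-2.86) and *ATHB2* (-2.11) and the auxin synthesis gene *YUC8* (-1.44) fell as well. *YUC5*, at 1.83, 1.59 and 1.94 CPM and 2.58, 2.17 and 2.08, had the highest log2 value of the list, 0.35, and was not called.

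Auxin-response families followed. 13 of 27 tested *Aux/IAA* genes fell and 1 rose, and their median was -0.99. *IAA6* had 25.4, 26.2 and 29.8 CPM in Col-0 and 0.0445, 0.0963 and 0 in *spaQ*, a Col-0 level 579 times that in *spaQ* with a 95% counting interval of 198 to 2812. *IAA5*, at 2.80, 2.19 and 2.32 CPM in Col-0, left a single count over the *spaQ* libraries. *IAA3* fell from 79.5, 80.5 and 87.3 to 4.14, 4.33 and 4.46. *IAA31* went the other way, from 0.297, 0.387 and 0.418 to 2.05, 2.12 and 0.970. Of the 67 tested *SAUR* genes, short auxin-induced transcripts whose products promote cell expansion, 35 fell and 11 rose, with a median of -1.51. *SAUR28* fell from 12.3, 11.8 and 13.9 CPM to 0.134, 0.0482 and 0.0970, *SAUR19* from 17.7, 18.4 and 20.1 to 0.312, 0.144 and 0.0485, and *SAUR10* from 14.9, 12.2 and 13.99 to 0.223, 0.0963 and 0.0485. Each of these had more than 10 CPM in every Col-0 library and at most 0.312 in any *spaQ* library. *SAUR46* (0.297, 0.344 and 0.228 CPM and 4.85, 5.44 and 5.67) and *SAUR74* (0.849, 1.07 and 0.912 and 8.72, 10.3 and 9.84) rose. Many *SAUR* genes stand in tandem and share sequence, so reads of neighbouring copies may be mixed.

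Among the *GH3* genes, a family that includes auxin conjugating enzymes, 4 of 8 fell and 1 rose. The lowest, *PBS3* (*GH3.12*) at -6.26, is counted again below among the salicylic acid genes. *GH3.2* was at -3.18 and *GH3.5* at -2.69, and *GH3.9* rose (1.51). Of 7 *PIN* auxin transporters 4 fell and 1 rose. *PIN7* went from 210.1, 197 and 208 CPM to 52.3, 50.2 and 53.9 and *PIN3*, which directs auxin in bending hypocotyls, from 268, 255 and 277 to 95.8, 103 and 96.4. *PIN6* was lower at -1.40. *PIN5*, which encodes a carrier of the endoplasmic reticulum, was at 0.0425, 0.0430 and 0.0760 CPM in Col-0 and 3.25, 2.74 and 3.93 in *spaQ*, 60.4-fold higher with a 95% counting interval of 23.2 to 224.

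Cell wall families that loosen growing walls changed in both directions. Of 19 tested alpha-expansin genes 11 fell and 2 rose. *EXPA8* fell from 185, 178 and 186 CPM to 8.59, 7.61 and 7.56 and *EXPA11* from 182, 173 and 175 to 22.1, 18.8 and 20.2. The genes that rose were *EXPA7* (5.27, 4.60 and 4.41 CPM in Col-0 and 36.8, 39.3 and 33.8 in *spaQ*) and *EXPA18* (3.69, 3.91 and 3.12 and 15.1, 14.7 and 12.8), both known from root hairs. Of 31 xyloglucan endotransglucosylase (*XTH*) genes 15 fell and 10 rose, so that the median, -0.07, hides changes of both signs. *XTH17* fell from 343, 327 and 348 CPM to 3.29, 2.12 and 2.91 and *XTH19* from 261, 252 and 264 to 13.8, 14.3 and 14.5. *XTH2*, at 0.977, 0.903 and 1.22 CPM in Col-0, had no count in *spaQ*, at least 7.31-fold lower. *XTH6* rose from 1.70, 1.505 and 1.82 to 219, 193 and 185 (6.88, standard error 0.090, edgeR adjusted p = 1.33e-27), and *XTH25* (3.51), *XTH7* (3.17) and *XTH22* (2.91), the last known as a touch-induced gene, followed.

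Gibberellin and brassinosteroid genes were called lower more often than higher. For gibberellin, 11 of 22 tested genes fell and 1 rose. *GA20OX1*, a synthesis gene, went from 10.11, 10.3 and 12.01 CPM to 0.312, 0.0963 and 0.0485, and *GA3OX1*, for the enzyme that makes the active hormone, from 36.8, 39.2 and 38.9 to 2.14, 1.88 and 2.23. Genes that inactivate gibberellin were lower too: *GA2OX1* went from 34.1, 32.7 and 34.9 to 2.05, 2.41 and 2.67. *GID1A*, a receptor gene, was the member called higher (1.00), a call at the limit that was lost with DESeq2 (0.99), without *spaQ* library 1 (0.90) and without Col-0 library 1 (0.97). For brassinosteroid, 4 of 13 fell and 0 rose, with *BR6OX1* at 19.5, 17.2 and 19.2 CPM in Col-0 and 0.445, 1.06 and 0.630 in *spaQ*, and *DWF4*, for a rate-limiting hydroxylase, at 50.9, 52.4 and 55.6 and 17.5, 13.0 and 11.98. *SOB7*, a gene for a brassinosteroid-inactivating enzyme, was at -1.59. Of 17 ethylene and apical hook genes 3 fell and 1 rose, a share of lower genes near the background. *ACS5*, for an ethylene precursor synthase, went from 27.0, 23.7 and 24.3 CPM to 0.267, 0.144 and 0.145, *ACS8* (-4.34) was lower at about 1 CPM in Col-0, and *HLS1*, needed for the apical hook of dark-grown seedlings, went from 3.95, 4.04 and 4.03 to 1.38, 1.35 and 1.21. *ACO4*, for an ethylene-forming oxidase, rose from 99.2, 99.6 and 102 to 529, 500.3 and 484.

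**Figure D4:**
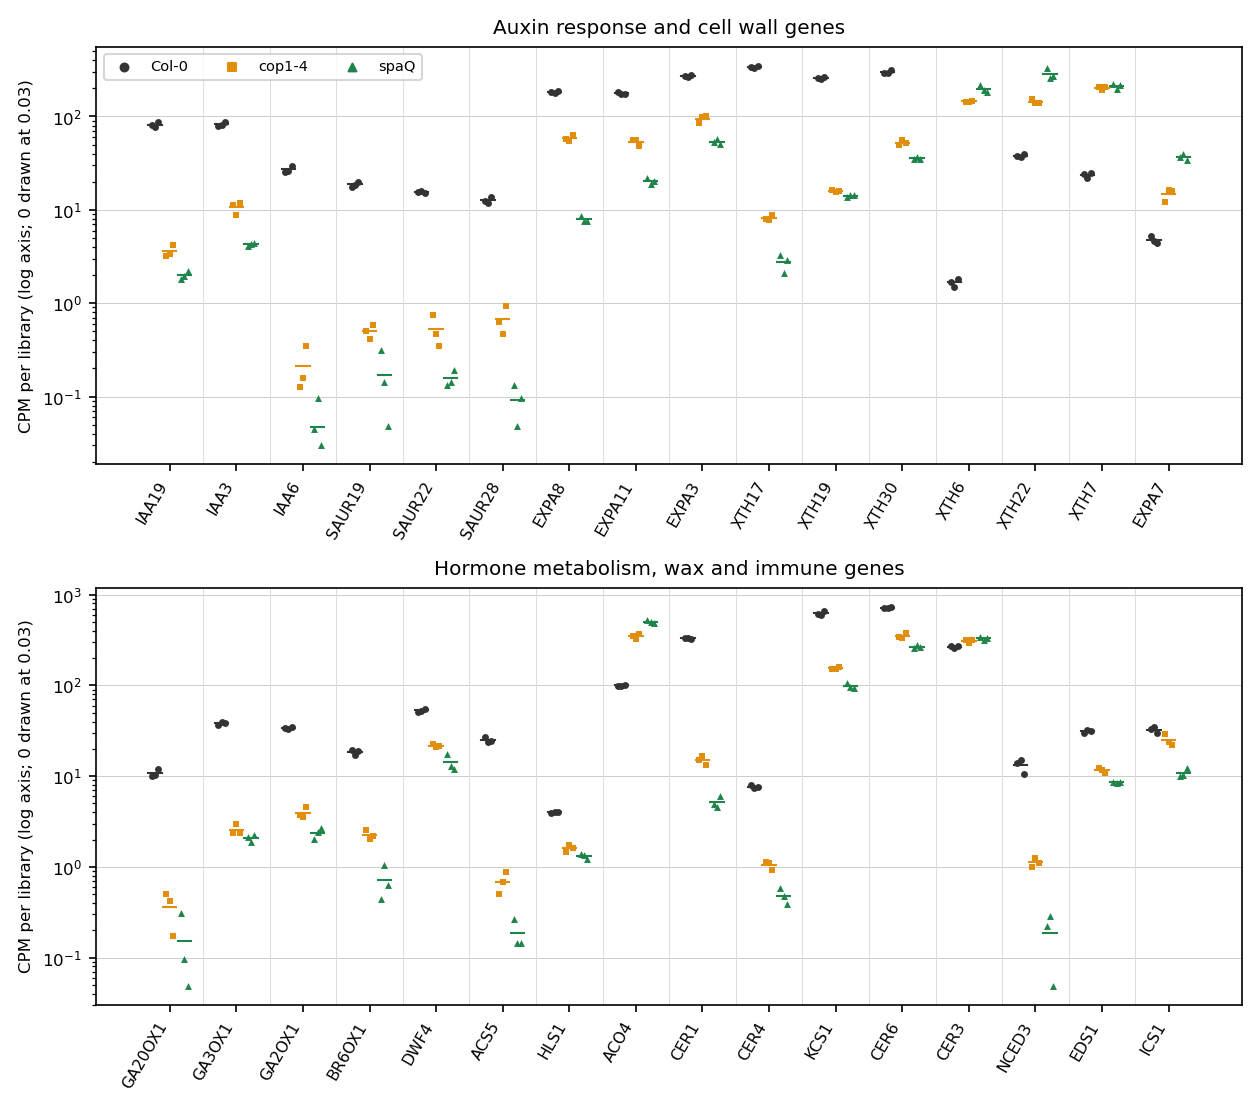
CPM of auxin response and cell wall genes (top) and of hormone, wax and immune genes (bottom) on log axes, 1 point a library and a bar at the mean of each group, with a value of 0 drawn at 0.03. *XTH17* lies at 327 to 348 CPM in Col-0 and 2.12 to 3.29 in *spaQ*, and *XTH6* at 1.505 to 1.82 and 185 to 219.

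Cuticular wax genes leaned downward. 12 of 19 tested genes were lower and 0 higher, with a median of -1.29, and the summed level was 4218 to 4420.4 CPM in Col-0 and 1879.6 to 1898 in *spaQ*. *CER1*, needed for alkane formation, went from 335, 336 and 321 CPM to 4.94, 4.57 and 6.06 (-5.99). *CER4*, the alcohol-forming reductase, went from 7.90, 7.396 and 7.64 to 0.579, 0.481 and 0.388. *WSD1*, the wax ester synthase, had 22.4, 22.1 and 21.7 CPM in Col-0 and no count in any *spaQ* library, at least 156-fold lower. *KCS1* (-2.66) and *CER6* (-1.44), which elongate very-long-chain fatty acids, fell, as did the elongase subunit genes *KCR1* (-1.29), *PAS2* (-1.32) and *CER10* (-1.55). *CER3*, the partner of CER1 in alkane formation, was at 272, 257 and 274 CPM in Col-0 and 344, 316 and 335 in *spaQ* and was not called. *LTP2*, a lipid transfer protein gene outside the list, lost more CPM than any called gene but catalase 3 (*CAT3*, AT1G20620), from 3102, 3177 and 3082 to 189, 212 and 239, and *CAT3* went from 3482, 3609.6 and 3741 to 631, 709 and 699.

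Stress and defence genes were mixed. Of 16 abscisic acid and cold genes 9 fell and 4 rose. *NCED3*, for the rate-limiting enzyme of abscisic acid synthesis, went from 14.1, 15.1 and 10.5 CPM to 0.223, 0.289 and 0.0485. The cold regulators *CBF3* (-4.06), *CBF1* (-4.04) and *CBF2* (-3.50) were lower, whereas *KIN1*, a cold-induced gene, rose from 7.39, 7.78 and 6.77 to 56.4, 57.7 and 45.8. *COR27* (2.69) and *COR28* (2.03), which encode small proteins that act in the clock and in light growth, rose as well. Of 10 salicylic acid and immune genes 7 fell and 1 rose. *EDS5*, for the transporter that exports the precursor of salicylic acid from plastids, went from 13.8, 14.4 and 16.4 CPM to 1.65, 2.02 and 2.08, and *ICS1*, for the main synthesis enzyme, from 32.9, 35.1 and 29.6 to 10.15, 10.3 and 12.2. *PBS3* (also *GH3.12*), the conjugating enzyme, was 90.8-fold higher in Col-0 (95% counting interval 24.8 to 755) and *PR1*, a response marker, 64.6-fold (11.2 to 2587), both at under 4 CPM. *PR5* went against the list, with no count in Col-0 and 0.623, 0.867 and 0.533 CPM in *spaQ*, at least 5.46-fold higher. Of 7 heat shock genes 3 were higher and 0 lower, with *HSP17.6A* at 1.57, 1.204 and 0.912 CPM in Col-0 and 14.4, 13.6 and 17.36 in *spaQ*, *HSP17.4* at 2.46 and *HSP90.1* at 1.26.

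Flavonoid and anthocyanin genes leaned upward. Of 25 tested genes 13 were higher and 4 lower, with a median of 1.28. *CHS*, for chalcone synthase, rose from 139.7, 123 and 136 CPM to 342, 440.2 and 392, and *FLS1*, for flavonol synthase, from 30.7, 27.7 and 30.1 to 96.4, 108 and 111. *DFR* and *LDOX* encode the first enzymes particular to the anthocyanin branch. *DFR* had 0.212, 0.172 and 0.0760 CPM in Col-0 and 4.90, 2.46 and 4.46 in *spaQ* (4.66), and *LDOX* had 0.212, 0.172 and 0.228 and 4.90, 4.38 and 5.38 (4.53). *TT8*, a bHLH activator of that branch, rose from 0.297, 0.215 and 0.190 to 6.90, 7.37 and 9.07. The flavonol regulators diverged, with *MYB12* rising from 2.25, 1.63 and 1.67 CPM to 29.7, 34.5 and 30.01 and *MYB111* falling from 21.0, 16.7 and 18.9 to 2.94, 2.50 and 3.68. *MYB75*, the anthocyanin MYB activator, fell from 10.0, 10.3 and 10.3 to 0.712, 0.337 and 1.21, and *MYBL2*, an inhibitor of the same complex, rose from 16.9, 19.4 and 22.2 to 174, 175 and 169.8. *F3H*, for flavanone 3-hydroxylase, was at 4.12, 3.27 and 3.76 CPM in Col-0 and 1.69, 1.83 and 1.99 in *spaQ* (-1.02), a call lost without *spaQ* library 1 (-0.96) or Col-0 library 1 (-0.94).

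The flavonoid list also separated *spaQ* from *cop1-4*. Between these mutants 1737 of the 20396 genes were called (8.52%), 2.88% higher in *spaQ* and 5.63% lower, against 20 of 25 flavonoid genes higher in *spaQ* and 0 lower. *CHS* was at 27.1, 32.0 and 31.2 CPM in *cop1-4*, below both other lines, and *spaQ* exceeded it by 3.70 on the log2 scale (standard error 0.081, edgeR adjusted p = 7.03e-22). *DFR* was at 0.313, 0.209 and 0.0581 CPM in *cop1-4*, and *spaQ* exceeded it by 4.33 (standard error 0.39, edgeR adjusted p = 8.21e-10). *ELIP1* (3.00) and *ELIP2* (2.76) were higher in *spaQ* than in *cop1-4* as well, and *LHCB1.4* was lower (-3.24), with 586, 579 and 664 CPM in *cop1-4*. Of the 32 photosystem and electron transport genes 0 were higher and 0 lower in *spaQ* than in *cop1-4*, and of the 19 wax genes 0 and 2. Other lists held more genes lower in *spaQ* than in *cop1-4*. They were 10 of 67 *SAUR* genes (3 higher), 5 of 19 alpha-expansins (2 higher) and 4 of 10 salicylic acid and immune genes (1 higher). Of 8 *GH3* genes 3 were lower and 0 higher, and of 20 antenna genes 3 and 0.

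Transcripts of seed proteins, which dry seeds store and seedlings lose, were higher for most members. 9 of 15 were called higher and 3 lower. *CRA1*, a cruciferin, had 99.9, 175 and 86.3 CPM in Col-0 and 557, 699 and 1042 in *spaQ* (2.67). *PAP85*, a vicilin-like protein, had 8.37, 20.6 and 11.3 and 93.6, 104 and 136 (3.05), and *OLEO4*, an oleosin of oil bodies, 1.49, 2.92 and 1.82 and 12.6, 13.96 and 20.1 (2.90). In each of these Col-0 library 2 was the highest of its group and *spaQ* library 3 the highest of its own. *OLEO3* went the other way, from 29.9, 33.9 and 31.7 CPM to 0.579, 1.06 and 0.824 (-5.28), as did the albumin genes *SESA4* (-3.17) and *SESA1* (-1.71). The *cop1-4* libraries held 1.44, 68.5 and 0.697 CPM of *CRA1*, with library 2 far above the other two, so *spaQ* was not compared with *cop1-4* for this list. DESeq2 called 3 higher and 2 lower and gave *CRA1* an adjusted p of 0.0822, whereas edgeR on the 6 libraries of *spaQ* and Col-0 called 9 and 3. Without Col-0 library 2 the list counted 9 higher and 3 lower, and 9 higher and 4 lower without *spaQ* library 3.

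Of 18 genes of oil breakdown and the glyoxylate cycle 1 rose and 1 fell, with *PMDH2*, a peroxisomal malate dehydrogenase, at 199, 193 and 192 CPM in Col-0 and 1286, 1027 and 1026 in *spaQ* and *PCK1*, for the entry into gluconeogenesis, at 1102, 1214 and 1092 and 357, 417 and 427. *ICL*, for isocitrate lyase, was at 0.62 and was not called.

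**Figure D5:**
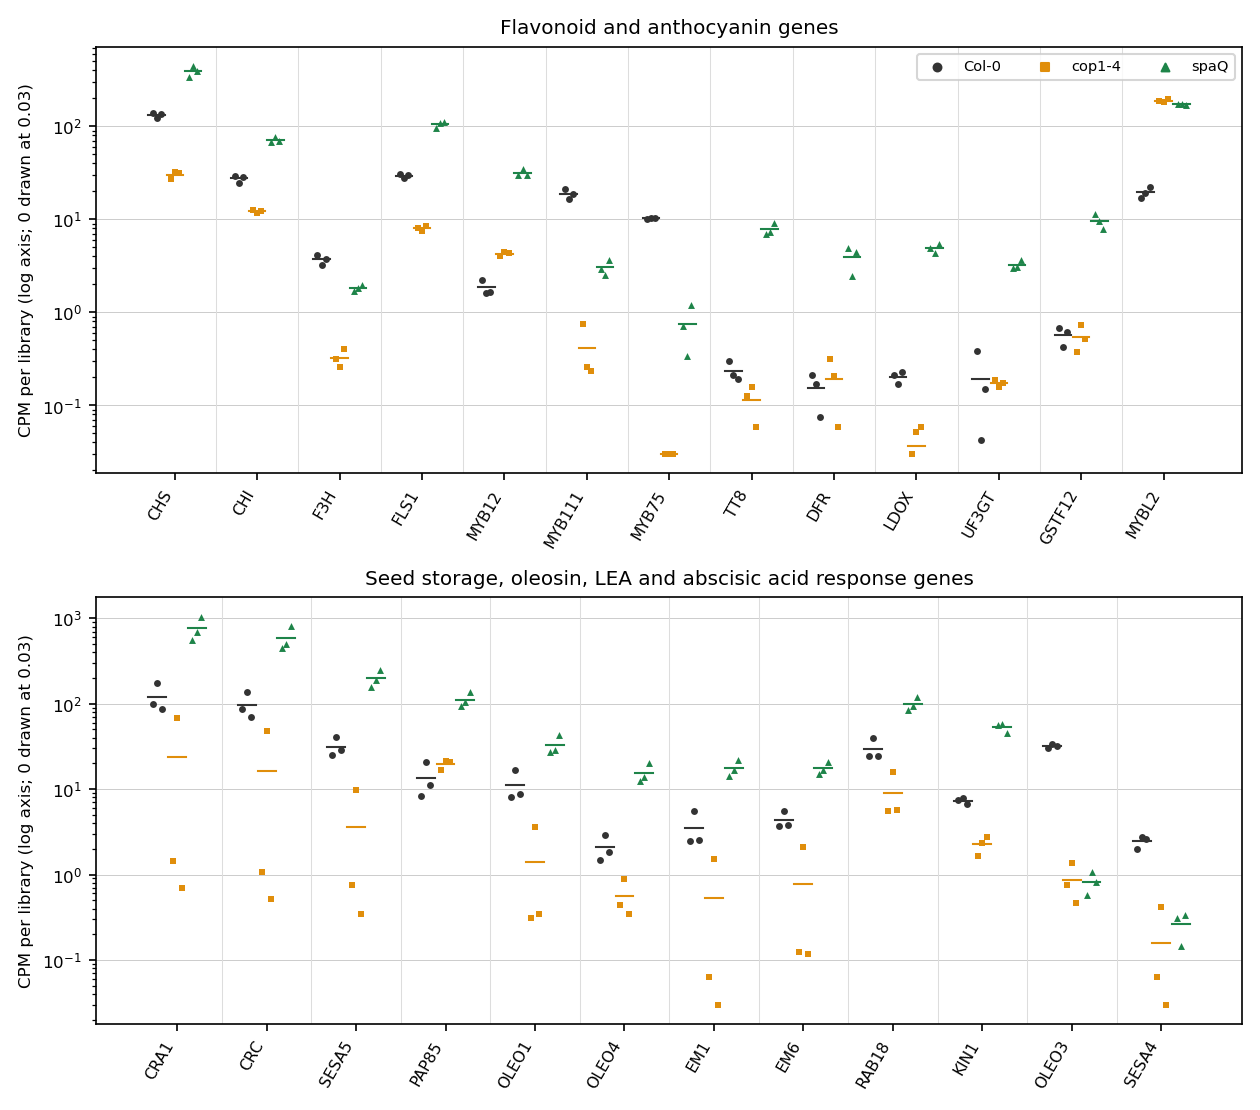
CPM of flavonoid genes (top) and of seed storage, oleosin, LEA and abscisic acid response genes (bottom) on log axes, 1 point a library and a bar at the mean of each group, with a value of 0 drawn at 0.03. *MYB12* lies at 1.63 to 2.25 CPM in Col-0 and 29.7 to 34.5 in *spaQ*, and *OLEO3* at 29.9 to 33.9 and 0.579 to 1.06.

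Genes for ribosomal proteins had a smaller median shift than the photosynthesis lists, with more members called higher than lower. Of 320 genes for ribosomal proteins 65 were called higher and 2 lower, and 281 were higher at an adjusted p under 0.05 with no fold limit, beside 40.2% of all genes tested (8191 genes), around a median of 0.66 (with library size alone 43 called higher and a median of 0.41). The 10 whose product name or symbol places them in plastids were all called higher, with a median of 1.66. Of the 16 named as cytosolic 60S or 40S subunits 3 were called higher, with a median of 0.68. Most of the 320 names fall in neither group, so other plastid or cytosolic members were not sorted. Of 42 histone genes 2 were higher and 3 lower, and of 15 genes of DNA replication and mitosis 0 and 0, with a median of -0.05. *HTA12*, a histone H2A gene, fell from 13.3, 11.7 and 11.7 CPM to 2.09, 2.70 and 2.57, *AT1G08170*, a histone family gene, was at 2.50 and *AT2G28720* at 2.06.

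Markers of organs and cell types moved as well. The 6 tested root and root hair markers summed to 7586 to 8119 CPM in Col-0 and 4116 to 4164 in *spaQ*, a sum set by *PYK10*, a root myrosinase at 7725, 7556 and 8091 CPM in Col-0 and 4067, 4029 and 4010.1 in *spaQ*. 4 of them rose and 0 fell, with the root hair genes *EXPA7*, *RSL4* (1.83) and *PRP3* (1.60) in front. The 8 stomatal markers summed to 41.5 to 44.6 CPM in Col-0 and 58.1 to 60.2 in *spaQ*, with *FAMA*, for the last step of guard cell formation, at 4.67, 4.04 and 3.73 and 13.4, 11.8 and 12.02, and *MUTE* at 1.11. 2 of them were called higher and 0 lower, and the log2 values ran from -0.85 for *EPF2*, an early peptide signal of the lineage, to 1.59 for *FAMA*. *EPF2* was called lower without *spaQ* library 2 (-1.18) and with library size alone (-1.10). Without *spaQ* library 1 *MUTE* was at 0.85 and no longer called, as without Col-0 library 2 (0.94) or 3 (0.97). The 5 tested markers of the shoot apex and leaf primordia summed to 82.9 to 88.8 CPM in Col-0 and 39.3 to 45.2 in *spaQ*, with *STM* (-1.21) and *AS1* (-1.14) lower and 0 called higher. No tested marker of these lists was at 0 in any library of either line, and *WUS* was not among the genes tested. The part of organ proportions in the other results was not tested.

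The largest changes of single genes, at an average of at least 3 on the log2 CPM scale, lay partly outside the lists. *UMAMIT36*, a transporter of the EamA family, was at 54.5, 61.1 and 62.6 CPM in Col-0 and 0.0445, 0 and 0 in *spaQ*, where a single count remained. *MRN1*, the marneral synthase of triterpene metabolism, was at 24.5, 38.9 and 41.3 and 0.0445, 0.0963 and 0, 747-fold higher in Col-0 (95% counting interval 255 to 3627). *AT5G04120*, of the phosphoglycerate mutase family, was at 139.6, 143 and 138 and 0.267, 0.385 and 0.0970, and it had no count in *cop1-4*. Pectin-modifying genes stood among these losses, with *PME61* at 44.5, 48.5 and 47.9 CPM in Col-0 and 0.178, 0.0482 and 0 in *spaQ* and *ATPMEPCRD* at 566, 602 and 692 and 1.60, 2.36 and 1.26. *AT4G17470*, an alpha/beta-hydrolase, left no count in *spaQ* and was at least 153-fold lower. The other genes of the 10 largest decreases were *AT2G28780* (-8.93), *AT1G49570*, a peroxidase (-8.39), *IAA6* and *WSD1*.

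On the side of the gains, *CIPK20*, a kinase regulated by calcium sensors, was at 0.127, 0.0430 and 0.114 CPM in Col-0 and 111, 98.2 and 101 in *spaQ*, 1085-fold higher (526 to 2699.6). *AT5G62240*, annotated as a microtubule-associated protein, went from 0, 0 and 0.0380 to 48.1, 41.8 and 43.8. *FRO6*, a ferric reductase known from leaves, went from 0.977, 0.903 and 0.760 to 147, 129 and 128. All of these were high in *cop1-4* too, at 105, 97.1 and 106 CPM for *CIPK20* and 47.4, 43.9 and 45.5 for *FRO6*. *BCB*, a blue copper-binding protein, rose from 0.849, 1.25 and 1.03 CPM to 303, 288 and 299.8. The cytochrome P450 genes *CYP706A6* (9.76) and *CYP71A22* (9.196), the squalene monooxygenase gene *SQE6* (7.60), *AT1G22690*, a gibberellin-regulated family member (8.65), and *AT1G65490* (8.69) completed the list with *AT3G01345*. *AT3G01345*, of unknown product, was at 0.595, 0.817 and 0.342 CPM in Col-0, 93.5, 105 and 94.8 in *spaQ* and 0.125, 0.157 and 0.116 in *cop1-4*, the one gene among these increases that was not high in the other mutant. Among the largest losses in CPM were the aquaporin genes *TIP2* (5005, 5062 and 5409 CPM in Col-0 and 2307, 2475 and 2370.1 in *spaQ*) and *PIP2A* (2677, 2674 and 2843 and 1222, 1188 and 1147), and *AT3G16420*, for a binding protein of PYK10 (2259.5, 2301 and 2406 and 674, 729 and 711).

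Seedlings of the same age that carry full-length phyB in a *phyA phyB* double mutant (*phyB-GFP* FL), grown in the same way, were sequenced in darkness and after 1 h of red light (3 libraries each), and these libraries take no part in the comparison of *spaQ* with Col-0. A separate edgeR fit held these libraries together with those of *phyB-GFP* dC, a line with C-terminally deleted phyB, in darkness and in red light. The limits were an adjusted p under 0.05 and a fold of 1.5. In *phyB-GFP* FL, 3.35% of the 20015 genes tested in both fits rose in red light and 1.64% fell. Of the 2798 genes higher in *spaQ*, 6.75% rose and 1.43% fell. Of the 3528 genes lower in *spaQ*, 5.07% rose and 4.62% fell, and of those not called 2.21% and 0.92%. These shares are given as a description and were not tested. Genes higher in *spaQ* had a median average level of 4.06 on the log2 CPM scale and genes lower in *spaQ* 2.60, against 3.96 for all tested genes. The average runs over the 9 red light libraries, *spaQ* and *cop1-4* included, so the change in *spaQ* itself contributes to this difference.

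Promoters are shown because PIF factors and HY5 bind the G-box, CACGTG, which reads the same on both strands. Each window holds the 250 bases before the annotated gene start and the first 50 bases of the gene (RefSeq, TAIR10.1, read on the strand of the gene), with the G-box in capitals. Holders of a G-box were sought among the 10 largest increases and decreases and the 3 largest called changes of each list, ribosomal proteins aside. Other named genes were not searched for this choice. Of the 17 holders found, *FRO6* and *DFR*, which rose, and *IAA19* and *FHL*, which fell, were picked. They were picked for their roles after their values were seen. *FRO6* lies at chr5:20204546-20204845 (minus strand), *DFR* at chr5:17165983-17166282 (minus strand), *IAA19* at chr3:5263751-5264050 (plus strand) and *FHL* at chr5:437115-437414 (plus strand).
FRO6: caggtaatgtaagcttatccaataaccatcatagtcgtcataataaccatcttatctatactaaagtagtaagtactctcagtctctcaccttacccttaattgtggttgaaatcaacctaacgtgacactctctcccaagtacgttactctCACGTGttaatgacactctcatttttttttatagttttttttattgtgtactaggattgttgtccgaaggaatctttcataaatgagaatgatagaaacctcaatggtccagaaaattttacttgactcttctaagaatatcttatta
DFR: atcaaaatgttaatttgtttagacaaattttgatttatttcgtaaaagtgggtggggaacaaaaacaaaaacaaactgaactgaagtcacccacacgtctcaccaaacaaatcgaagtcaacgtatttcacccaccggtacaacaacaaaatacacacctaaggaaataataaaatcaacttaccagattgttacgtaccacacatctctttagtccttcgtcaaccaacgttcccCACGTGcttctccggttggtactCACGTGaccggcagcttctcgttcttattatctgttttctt
IAA19: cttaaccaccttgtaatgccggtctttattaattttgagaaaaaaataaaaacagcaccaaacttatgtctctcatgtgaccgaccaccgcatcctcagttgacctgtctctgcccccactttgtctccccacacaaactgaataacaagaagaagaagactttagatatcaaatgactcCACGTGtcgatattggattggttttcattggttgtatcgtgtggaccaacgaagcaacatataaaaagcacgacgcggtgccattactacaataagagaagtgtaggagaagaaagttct
FHL: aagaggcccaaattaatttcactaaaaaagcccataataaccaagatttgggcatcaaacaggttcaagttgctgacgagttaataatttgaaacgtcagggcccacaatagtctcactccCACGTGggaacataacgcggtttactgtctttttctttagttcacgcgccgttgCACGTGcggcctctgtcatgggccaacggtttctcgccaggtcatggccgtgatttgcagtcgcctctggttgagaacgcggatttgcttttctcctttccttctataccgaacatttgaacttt
Counted from 0 at the first base of the gene, the box starts at -98 in *FRO6* and at -70 in *IAA19*, while *DFR* and *FHL* hold 2 boxes each, the first at -14 and -129.

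The G-box stood in 10.0% of the promoters of genes that were higher in *spaQ*, 8.72% of those that were lower and 8.89% of all tested genes. The related E-box CACATG (or CATGTG on the other strand) was found in 11.6%, 18.22% and 13.0%. The I-box GATAAG stood in 19.4%, 14.4% and 14.8%, and the evening element AAAATATCT in 4.58%, 2.55% and 2.95%. The telo box AAACCCTA stood in 7.20%, 2.89% and 5.41%. The abscisic acid response element ACGTGTC, which overlaps a G-box where both share ACGTG, stood in 6.61%, 4.91% and 5.14%. By list, the G-box stood in 54.5% of clock, 53.3% of seed protein, 42.9% of 7 heat shock and 37.5% of photosystem promoters. It stood in none of the 19 wax, 19 alpha-expansin or 31 *XTH* promoters, among other lists. The I-box was in 57.1% of 7 *PIN* promoters and 53.1% of photosystem promoters. The E-box was in 50% of 8 stomatal, 46.7% of seed protein, 46.2% of brassinosteroid and 41.8% of *SAUR* promoters. The telo box was in 33.8% of ribosomal protein promoters. These are matches of letters and describe the windows only.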

How the data were processed

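RNA-seq reads were checked with FastQC, aligned to TAIR10 with TopHat and Bowtie2 and counted with HTSeq by the authors, who deposited raw read counts per gene without normalization. The strand mode of the counting is not given in the sources used here, so overlapping genes on opposite strands, like near-identical paralogs, carry uncertain counts. Groups were taken from the labels of the libraries.

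One edgeR 4.0.16 model (R 4.3.3) held the 9 libraries that had red light in *spaQ*, *cop1-4* and Col-0. Of 33655 features, 20396 genes passed filterByExpr by group, TMM factors scaled the libraries, and the quasi-likelihood test was adjusted by Benjamini-Hochberg over all genes tested. A call needed an adjusted p under 0.05 and a log2 fold change beyond 1 in either direction. Standard errors were derived from the test, as the absolute log2 fold change over the square root of the quasi-likelihood F statistic. The script recovered most of the changes put into 200 genes of simulated counts. These changes were all larger than the fold limit and lay in genes above the floor. Smaller changes and genes with few counts were not simulated. Floors and counting intervals (95%, exact) cover counting error only.

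Genes named are the SPA genes and *COP1*, the 10 largest increases and decreases with a mean log2 CPM of 3 or more and without overlap between the lines, the 5 largest gains and losses in CPM, the 3 called members of each list with the largest change, members that go against their list, and members of the regulator lists by role. Others were added after their values were seen. The gene lists and comparisons were chosen with earlier results of these data known. The phyB libraries of the series had a model of their own. Annotation and promoters came from RefSeq TAIR10.1. Alternatives were DESeq2 1.42.0, its size factors in edgeR, library size alone, looser and stricter count filters, other sets of libraries, other fold limits, the replicate number as a block, and each library left out in turn.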

Additional observations from a re-analysis of the deposited data

How the results depend on the processing

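The number of genes called, 6630, was 7064 with DESeq2, 6681 with library size alone, 7397 for every gene with a count, 5067 when all libraries had to hold at least 10 counts of a gene and 6668 to 6825 with a library left out (3050 to 3129 higher, 3572 to 3696 lower). A limit of 2 on the log2 fold change left 2369 genes (844 higher, 1525 lower), and without a limit 16190 passed (8191 higher, 7999 lower). Same-numbered libraries of Col-0 and *spaQ* did not deviate together (correlations of 0.0135, -0.0046 and -0.051 across genes), and the fit with a replicate block called 6628. Over 3176 refitted values of 202 named genes, 3050 kept direction and call, 88 lost the call (54 at the limit of 2), 27 gained it (20 without a limit) and 11 changed sign, in genes near 0. *PETE1* was at -0.00136 with DESeq2 size factors, -0.24 with library size alone, -0.0196 with the stricter filter, and -0.0186 to 0.0512 with a library left out, below 0 without *spaQ* library 2 or Col-0 library 1 or 2. *LHCB1.4* was at -0.0916 to 0.0844 with a library left out, above 0 without *spaQ* library 1 or Col-0 library 3. Library size alone put *SPA2* at -0.15, *ELIP2* at -0.00168 and *LHCB3* at -0.18, and brought *PHYA* (-1.07), *PIF4* (-1.10) and *PYK10* (-1.20) past the limit, while *BBX25* (0.91) and *LUX* (0.91) fell short of it. DESeq2 lost the call of *SESA1*, and the stricter filter removed named genes with few counts in one line. The causes were not tested. Among the list counts, 1033 of 1152 stayed within 1.5 times. Without *spaQ* library 2 *LACS1* made 1 wax gene higher. Without *spaQ* library 3 or Col-0 library 3, 2 oil genes were lower. Depth limits what can be said of genes near the floor, where no count in a group gives a bound only.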
